A study of Homo sapiens with 12 samples.

Results

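The 10 genes examined here mark fetal liver and return in liver cancer, and their expression was followed in Huh7 cells: AFP, GPC3, H19, IGF2, IGF2BP1, DLK1, PEG10, MDK, SPINK1 and EPCAM. They were taken by gene name from the deposited Huh7 expression table, where all 10 were found among 60666 listed genes, and 8 of the 10 were among the 14394 genes with enough signal to be tested. Huh7 is an established human hepatocellular carcinoma (HCC) line. The control group carried a control construct, and the shFAM111B group carried a lentiviral short hairpin RNA against FAM111B. Both were stable lines kept under puromycin selection. The methods give a single shRNA sequence for the knockdown and do not say whether the lines are clones or pools. Each group had 3 libraries, and nothing in the sources says that these came from separate cultures, so p-values measure the spread between these libraries, which may be technical. The Hep3B libraries of the same study were not analysed here.

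Oncofetal genes are active in the embryonic liver, are switched off in hepatocytes around or after birth, and are expressed again in many HCC. Several serve as serum or tissue markers, with AFP the most widely measured. The group spans different roles: secreted proteins (AFP, SPINK1), cell surface proteins (GPC3, EPCAM), growth factors (IGF2, MDK), an RNA-binding protein that stabilises growth-related mRNAs (IGF2BP1), and imprinted genes, which are expressed from only the maternal or the paternal copy (H19, IGF2, DLK1, PEG10). H19 and IGF2 are neighbours with opposite imprints, and AFP lies in the albumin gene cluster beside ALB, which hepatocytes express throughout adult life.

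Values are TPM, a measure of transcript abundance that corrects for transcript length and sets every library to a common total, so levels of different genes can be set side by side but no sequencing depth is kept. The deposited values were not at exactly 1 total and summed to 978634 to 997094 TPM per library over the listed genes. Log2(TPM + 1) was compared with limma, and a gene is said to have risen or fallen at a Benjamini-Hochberg adjusted p under 0.05 over all tested genes. FAM111B itself had 7.84 to 8.29 TPM in control libraries and 0.84 to 1.13 TPM in shFAM111B libraries. The median tested gene was lower by 0.36 on the log2 scale in shFAM111B cells (log2 fold change -0.36), so the change of each tested marker is also given relative to that gene. Of the 7 hepatocyte markers, all were detected, with a summed level of 20138 to 20441 TPM in control and 18797 to 20596 TPM in shFAM111B libraries. The 5 fibroblast markers summed to 9.21 to 11.4 TPM in control and 14.7 to 20.04 TPM in shFAM111B libraries, the 4 endothelial markers to 1.26 to 2.29 and 2.15 to 3.49 TPM, and the 4 leukocyte markers, mostly CD68, to 19.1 to 21.9 and 23.8 to 26.1 TPM. Of their defining genes, KDR was listed at 0 in every library, and COL1A1, DCN, VWF, CDH5 and CD3E were below 1 TPM in every library. PECAM1 (1.26 to 3.49 TPM), PDGFRB (1.60 to 4.45 TPM) and CD14 (1.90 to 3.96 TPM) were above 1 TPM in every library. PTPRC was below 1 TPM in 5 libraries and at 2.39 TPM in 1 control library. LUM and COL1A2 of the fibroblast list and CD68 of the leukocyte list were higher in shFAM111B cells (adjusted p = 0.00121, 0.0288 and 0.0016, limma). COL1A2 passed in only 2 of the 6 fits that left out a library. PDGFRB, PECAM1 and CD14 did not pass (adjusted p = 0.0639, 0.109 and 0.0681, limma). The mean of CD14 went from 3.73 to 2.53 TPM, and that of COL1A1, not tested, from 0.67 to 0.263 TPM. The part of these genes in the marker results was not tested.

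Promoter sequences are shown for AFP and SPINK1, the 2 markers with the largest rise, and for ALB, the neighbour of AFP, which fell. Promoters of 3 of the 10 markers (AFP, SPINK1 and H19) were matched by symbol in RefSeq (GRCh38.p14). The RefSeq starts differ from the ends of the GENCODE gene spans used for positions elsewhere. The AFP and ALB windows lie inside those spans, and the SPINK1 window crosses the upstream end of its span. The 250 bases before the start are given 5′ to 3′, with matches to the searched motifs in capitals:
AFP, chr4:73435971-73436220, plus strand: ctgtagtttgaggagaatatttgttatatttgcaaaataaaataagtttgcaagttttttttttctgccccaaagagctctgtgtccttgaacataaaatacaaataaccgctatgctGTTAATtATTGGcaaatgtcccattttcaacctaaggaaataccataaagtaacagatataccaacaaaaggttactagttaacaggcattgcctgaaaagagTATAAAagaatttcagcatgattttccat
ALB, chr4:73404037-73404286, plus strand: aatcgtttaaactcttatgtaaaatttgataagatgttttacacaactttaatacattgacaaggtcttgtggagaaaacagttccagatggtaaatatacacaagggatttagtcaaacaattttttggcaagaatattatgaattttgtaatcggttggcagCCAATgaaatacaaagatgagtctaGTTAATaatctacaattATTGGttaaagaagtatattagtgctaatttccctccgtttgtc
SPINK1, chr5:147831672-147831921, minus strand: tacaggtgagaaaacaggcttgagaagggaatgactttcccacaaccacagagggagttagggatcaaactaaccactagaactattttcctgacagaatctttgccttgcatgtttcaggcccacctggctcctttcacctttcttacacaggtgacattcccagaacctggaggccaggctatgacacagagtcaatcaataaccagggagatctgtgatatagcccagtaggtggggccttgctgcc
Both strands were searched for GTTAAT, a half-site of the liver transcription factor HNF1, which was in 6.23% of 35116 promoter windows of the same length. The TATA box, searched as TATAAA, was in 10.7% of these windows. The CCAAT box, searched as those 5 letters, was in 32%, and TGTTTAC, a core of the FOXA site, in 2.98%. In the AFP window GTTAAT lay 132 to 127 bases before the start, a CCAAT on the opposite strand 125 to 121 bases before it, and TATAAA 29 to 24 bases before it. In the ALB window GTTAAT lay 61 to 56 bases before the start, with a CCAAT on the same strand 86 to 82 bases before it and another on the opposite strand 44 to 40 bases before it. The SPINK1 and H19 windows held none of these letters, and TGTTTAC was in none of the 4. None of the matches overlapped another. The AFP and ALB windows had a GC content of 31.6% and 30%, against 48.8% for SPINK1 and a median of 58% over all windows. A match describes the letters and not the use of a site.

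In control cells the markers spanned almost the whole range of expression. AFP led at 7274 ± 199.9 TPM (SD, n = 3), rank 13 of all listed genes, followed by SPINK1, PEG10, GPC3, MDK, IGF2, IGF2BP1 and EPCAM, with H19 and DLK1 near 0. No 2 neighbours in this order overlapped in their control ranges. In shFAM111B cells the order was the same except that EPCAM stood above both IGF2 and IGF2BP1. AFP had become the gene with the highest TPM in the table (rank 1), and the ranges of H19 and DLK1 overlapped. The 10 markers together rose from 1.11% ± 0.0254 to 3.01% ± 0.182 of all listed TPM (SD, n = 3 each), and without AFP and SPINK1 their summed level was 2258 ± 34.4 and 2560 ± 27.3 TPM. In bulk libraries a change in the number of cells that express a gene and a change of RNA per cell cannot be told apart.

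**Figure D1:**
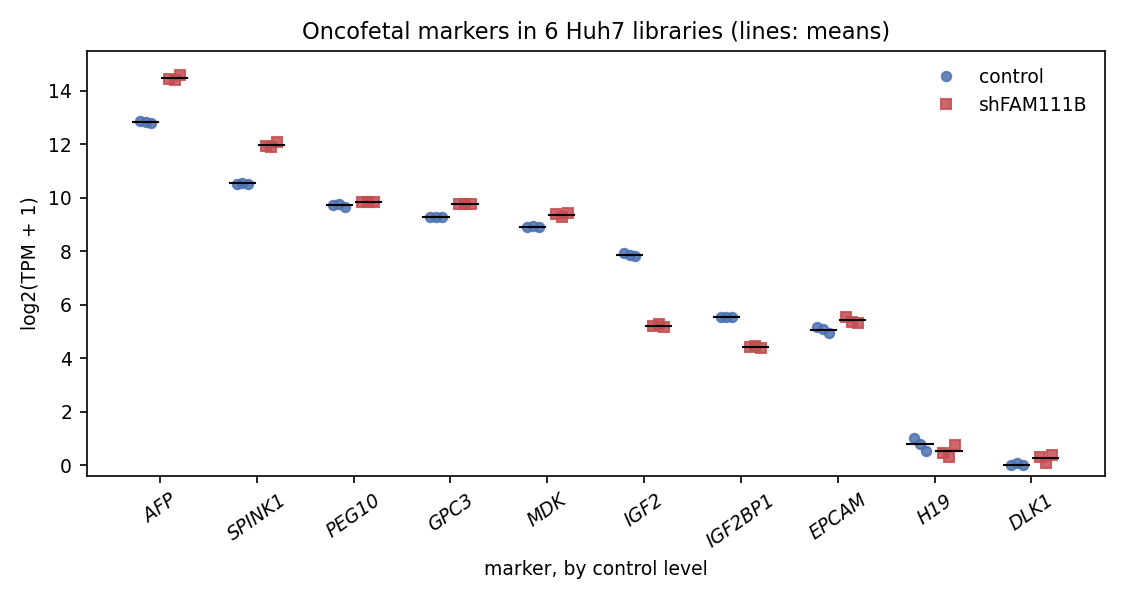
Level of each marker in every library, as log2(TPM + 1) on the y axis, with markers ordered by control level on the x axis. Circles are the 3 control libraries, squares the 3 shFAM111B libraries and lines the group means. AFP and SPINK1 sit higher and IGF2 and IGF2BP1 lower in shFAM111B cells, and H19 and DLK1 lie near 0 in both groups.

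Of the 8 tested markers, 6 rose (AFP, SPINK1, GPC3, MDK, EPCAM, PEG10) and 2 fell (IGF2, IGF2BP1), and in all 8 the 3 control and 3 shFAM111B values did not overlap. Over all tested genes, 21.1% rose and 50.9% fell, while 22.5% lay wholly above and 52.8% wholly below the control range. The study's thresholds were a 2-fold difference and P under 0.05, with P taken here as unadjusted. With the TPM as deposited, 2 markers were then higher (AFP, SPINK1) and 2 lower (IGF2, IGF2BP1), against 6.82% and 23.7% of all tested genes. Unlike these shares, the paper reports similar numbers of higher and lower genes in Huh7. After median-of-ratios scaling, 2031 tested genes were higher and 1799 lower at these thresholds. The median log2 fold change of the tested markers was 0.40 as deposited, 0.84 after median-of-ratios scaling, 0.25 with the length and level trend removed and 0.04 after quantile normalization. Over all tested genes the median was -0.36, 0.03, -0.02 and -0.03 in the same order. H19 and DLK1 did not reach 1 TPM in 3 libraries and were not tested, so these counts cover 8 of the 10 markers.

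**Figure D2:**
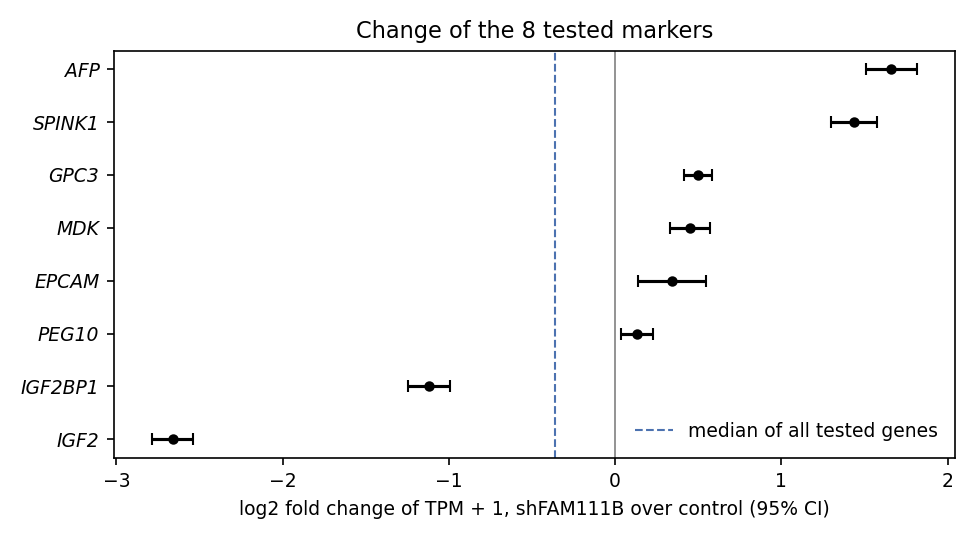
Log2 fold change of TPM + 1 (x axis) for each tested marker (y axis), shFAM111B over control, with limma's 95% confidence interval as the bar. The dashed line is the median of all tested genes at -0.36. AFP and SPINK1 lie furthest to the right at 1.66 and 1.44, and IGF2 furthest to the left at -2.66.

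AFP (ENSG00000081051, chromosome 4 from 73431138 to 73456174), the main plasma protein of the fetus, had 7411, 7366 and 7045 TPM in the control libraries and 22294, 21853 and 25038 TPM in the shFAM111B libraries. The lowest shFAM111B library was thus far above the highest control library. The level rose 3.17-fold, with a log2 fold change of 1.66 (95% confidence interval 1.51 to 1.81, adjusted p = 2.95e-06, limma), or 2.02 above the median gene. The gain held in each of 5 other scalings, from 1.497 to 2.43. AFP alone accounted for 0.731% ± 0.0211 of listed TPM in control and 2.34% ± 0.156 in shFAM111B cells (SD, n = 3 each).

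SPINK1 (ENSG00000164266, chromosome 5 from 147824568 to 147831786) encodes a secreted trypsin inhibitor and was the second most abundant marker. It had 1484, 1493 and 1479 TPM in control and 3900, 3829 and 4369 TPM in shFAM111B libraries. The control libraries were nearly level, and each shFAM111B library was above all of them. SPINK1 rose 2.72-fold (log2 fold change 1.44, 95% confidence interval 1.30 to 1.57, adjusted p = 3.15e-06, limma), or 1.80 above the median gene, moving from rank 88 to rank 25 of all listed genes. In both genes the third shFAM111B library was the highest, and the AFP to SPINK1 ratio was 5.71 to 5.73 in the 3 shFAM111B libraries against 4.76 to 4.99 in control. That library also had the lowest TPM from mitochondrial and short non-coding RNA genes (78378, against 124294 and 148384 in the other shFAM111B libraries and 197801 to 206235 in control). With these genes removed and the rest rescaled, the log2 fold changes were 1.53 for AFP and 1.31 for SPINK1, and without the third shFAM111B library they were 1.60 and 1.38.

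GPC3 (ENSG00000147257, chromosome X from 133535745 to 133985895) encodes a heparan sulphate proteoglycan of the cell surface that is used as a tissue marker of HCC. It had 618.4, 615.5 and 617.8 TPM in control and 876.2, 881.1 and 863.2 TPM in shFAM111B libraries. The libraries within each group hardly differed, and the rise was 1.42-fold (log2 fold change 0.50, 95% confidence interval 0.42 to 0.58, adjusted p = 1.85e-05, limma), or 0.86 above the median gene. Under quantile normalization the difference was 0.03 and did not pass (adjusted p = 0.406). GPC3 was the only glypican of the 6 at more than 10 TPM, since GPC1, GPC2, GPC4 and GPC5 were not tested and GPC6 was at 8.94 ± 0.800 and 6.53 ± 0.385 TPM (SD, n = 3 each). GPC6 fell as deposited (log2 fold change -0.40, adjusted p = 0.00917, limma) but was not lower in 3 of the 5 other scalings.

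EPCAM (ENSG00000119888, chromosome 2 from 47345158 to 47387601), an epithelial adhesion protein found on hepatic progenitor cells, had 35.1, 33.2 and 29.9 TPM in control and 45.7, 40.3 and 39.3 TPM in shFAM111B libraries. The highest control value was below the lowest shFAM111B value by a smaller margin than each group's own range. EPCAM rose 1.28-fold (log2 fold change 0.34, 95% confidence interval 0.14 to 0.55, adjusted p = 0.00936, limma), or 0.70 above the median gene. With mitochondrial and short RNA genes removed, its difference was 0.22 and no longer passed (adjusted p = 0.0879).

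MDK (ENSG00000110492, chromosome 11 from 46380756 to 46383837) encodes midkine, a secreted heparin-binding growth factor that is also measured in serum. It had 477.7, 492.0 and 482.1 TPM in control and 667.7, 623.7 and 696.5 TPM in shFAM111B libraries, with every shFAM111B library above control. It rose 1.37-fold (log2 fold change 0.45, 95% confidence interval 0.33 to 0.57, adjusted p = 0.000163, limma), or 0.81 above the median gene. MDK has a longest transcript of 1339 nt, and in these libraries short genes were higher as a class. The median log2 fold change was 0.17 over the 2235 tested genes over 1000 and up to 2000 nt, which include MDK, SPINK1 and EPCAM, and -0.78 over the 4346 genes over 4000 and up to 8000 nt, which include IGF2 and PEG10. With the trend on length and level removed, MDK was higher by 0.13 and did not pass (adjusted p = 0.131), while SPINK1 was still higher by 1.23 (adjusted p = 3.33e-05, limma).

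PEG10 (ENSG00000242265, chromosome 7 from 94656325 to 94669695), a paternally expressed gene derived from a retrotransposon, had 848.9, 868.2 and 816.5 TPM in control and 925.0, 925.1 and 924.6 TPM in shFAM111B libraries. The shFAM111B libraries lay within 1 TPM of each other and above the control range. The difference was the smallest of the tested markers, at 1.10-fold (log2 fold change 0.13, 95% confidence interval 0.04 to 0.23, adjusted p = 0.0197, limma), or 0.49 above the median gene. It did not pass without control replicate 1 (adjusted p = 0.06), control replicate 3 (0.0687) or shFAM111B replicate 1 (0.0691), limma with the remaining libraries. PEG10 was lower by quantile normalization (-0.31) and level with mitochondrial and short RNA genes removed (0.0011). SGCE, which overlaps the first 248 nt of PEG10 on the opposite strand and shares its imprint, had 73.2 to 84.0 TPM in control and 36.4 to 48.7 TPM in shFAM111B libraries. The log2 fold change of SGCE was -0.88 as deposited (adjusted p = 0.000291, limma). With the trend on length and level removed it was -0.21 and did not pass (adjusted p = 0.126, limma).

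IGF2 (ENSG00000167244, chromosome 11 from 2129112 to 2149603), the fetal insulin-like growth factor, had 243.8, 230.0 and 227.0 TPM in control and 35.9, 37.5 and 34.9 TPM in shFAM111B libraries. The groups were far apart, with a level 6.47-fold lower in shFAM111B cells (log2 fold change -2.66, 95% confidence interval -2.78 to -2.54, adjusted p = 1.08e-06, limma) and a difference from the median gene of -2.30. IGF2 overlaps other genes annotated on the same strand. Reads may be shared between them, so the value of IGF2 itself is uncertain, and how reads were divided was not tested. INS-IGF2, a read-through of the insulin and IGF2 genes, had 653.9, 670.4 and 660.0 TPM in control and 349.8, 343.8 and 363.4 TPM in shFAM111B libraries, and it also fell (log2 fold change -0.91, adjusted p = 3.88e-06, limma). IGF2 made up 26.1% ± 0.917 of the sum of both in control and 9.30% ± 0.541 in shFAM111B cells (SD, n = 3 each). AC132217.1, a non-coding gene of 844 nt over the 3′ end of IGF2, had 171.1, 167.2 and 173.4 TPM in control and 611.9, 478.2 and 729.0 TPM in shFAM111B libraries, and it rose (log2 fold change 1.80, adjusted p = 2.88e-05, limma). With the trend on length and level removed the log2 fold change of AC132217.1 was 0.11 and did not pass (adjusted p = 0.82, limma).

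The size of the IGF2 change depended on how these overlapping genes were counted together, a choice made after the data had been seen. The TPM of IGF2 and INS-IGF2 summed to 895.0 ± 7.09 in control and 388.4 ± 8.83 in shFAM111B cells (SD, n = 3 each), a log2 fold change of -1.20 (adjusted p = 2.33e-06, limma). With AC132217.1 added, the sums were 1066 ± 4.55 and 994.8 ± 133.9 TPM, and the difference of -0.11 did not pass (adjusted p = 0.328). Because AC132217.1 has a short transcript (373 nt against 5585 nt for IGF2), the same reads give it a higher TPM. Weighted by longest transcript length, the locus stood at 447.0 ± 7.43 and 184.2 ± 10.1 TPM, a log2 fold change of -1.28 (adjusted p = 3.15e-06, limma). IGF2-AS, on the opposite strand, had 1.40 to 2.32 TPM in all libraries, AC132217.2 (ENSG00000284779), which GENCODE also names IGF2 but the deposited table does not, had at most 0.23 TPM, and the microRNA gene MIR483 within IGF2 was listed at 0.

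**Figure D3:**
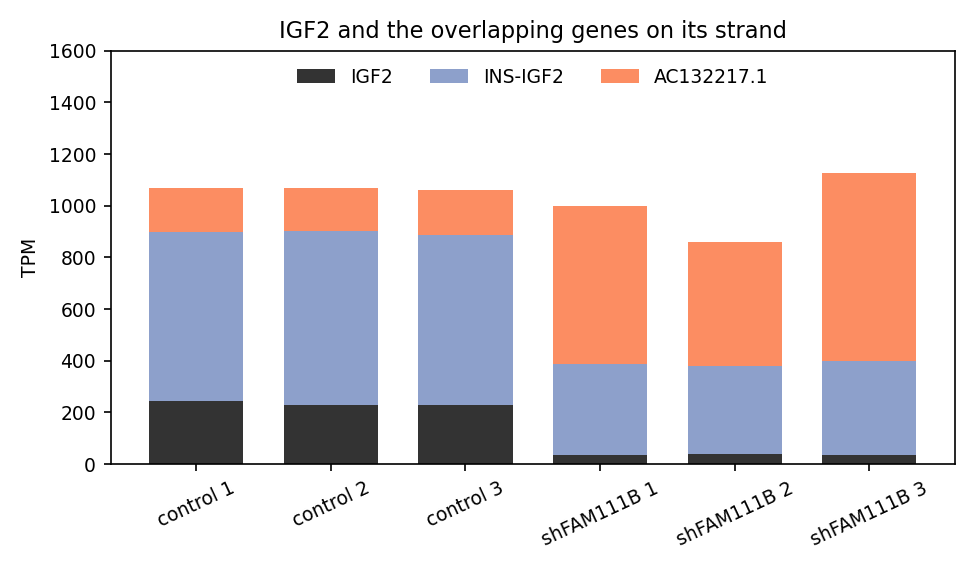
Stacked TPM (y axis, from 0) of IGF2, INS-IGF2 and AC132217.1 in each of the 6 libraries (x axis). IGF2 and INS-IGF2 are smaller in the 3 shFAM111B libraries and AC132217.1 is larger, so the 3 together reach 1060 to 1069 TPM in control and 859.5 to 1127 TPM in shFAM111B libraries.

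IGF2BP1 (ENSG00000159217, chromosome 17 from 48997412 to 49055650), which binds IGF2 and other mRNAs, had 45.7, 45.3 and 45.7 TPM in control and 20.7, 20.7 and 19.9 TPM in shFAM111B libraries. The groups were tight and well apart, and the level was 2.23-fold lower (log2 fold change -1.12, 95% confidence interval -1.25 to -0.99, adjusted p = 4.68e-06, limma), with a difference from the median gene of -0.76. Its longest transcript is 8274 nt, and the median tested gene over 8000 nt had a log2 fold change of -0.94. With the trend on length and level removed, IGF2BP1 was lower by 0.27 (log2 fold change -0.27, adjusted p = 0.00434, limma). The overlapping pseudogene on its strand, listed as AC091133.5 and named AC091133.4 in GENCODE, had 1.38 to 7.30 TPM.

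H19 (ENSG00000130600, chromosome 11 from 1995176 to 2001470), a maternally expressed long non-coding RNA, was near 0, with 1.01, 0.73 and 0.45 TPM in control and 0.39, 0.24 and 0.70 TPM in shFAM111B libraries. DLK1 (ENSG00000185559, chromosome 14 from 100725705 to 100738224), a paternally expressed membrane protein of hepatoblasts, had 0, 0.05 and 0 TPM in control and 0.25, 0.05 and 0.31 TPM in shFAM111B libraries. The groups overlapped for both genes and no change was detectable at these levels. MIR675, within H19, was listed at 0 in every library. The log2 ratio of H19 to IGF2 (pseudocount 1) was -7.10 ± 0.187 in control and -4.70 ± 0.280 in shFAM111B cells (SD, n = 3 each), but with H19 at this level the ratio restates the value of IGF2 and says nothing of H19.

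**Figure D4:**
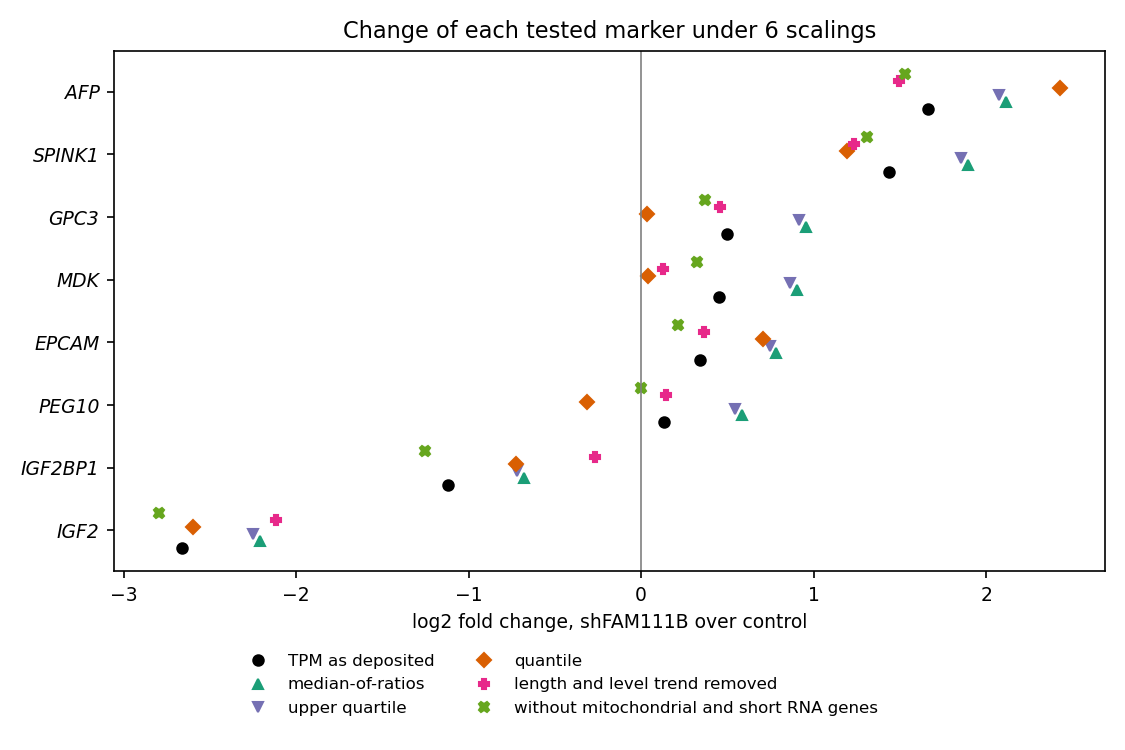
Log2 fold change (x axis) of each tested marker (y axis), shFAM111B over control, with the TPM as deposited and after 5 other scalings, 1 symbol each. AFP, SPINK1 and IGF2 keep their side of 0 with a wide margin. IGF2BP1 comes to -0.27 with the length and level trend removed, and EPCAM to 0.22 without mitochondrial and short RNA genes. GPC3 and MDK come near 0 under quantile normalization, and PEG10 lies on either side of 0.

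AFP and its neighbours in the albumin cluster moved in opposite directions. ALB had 6422, 6492 and 6419 TPM in control and 4139, 4356 and 3988 TPM in shFAM111B libraries, a log2 fold change of -0.63 (adjusted p = 2.31e-05, limma). The AFP to ALB ratio was therefore 1.15, 1.13 and 1.10 in control and 5.39, 5.02 and 6.28 in shFAM111B libraries. Its log2 value was higher by 2.29 (0.174 ± 0.0370 in control and 2.47 ± 0.165, SD, n = 3 each; exact two-sided permutation test p = 0.1, the smallest that 3 against 3 can give), and a single scaling factor per library does not change the ratio of AFP to ALB. All 3 listed genes of the cluster other than AFP fell, where 50.9% of all tested genes fell. GC, the vitamin D carrier, went from 493.3 ± 16.0 to 122.0 ± 3.63 TPM and AFM from 5.23 ± 0.735 to 1.38 ± 0.736 TPM (SD, n = 3 each). The hepatocyte markers, which include ALB, were split, with 2 of 7 higher and 5 lower, against 21.1% and 50.9% of all tested genes. Of the 7 markers, APOA1 (log2 fold change 1.11) and TTR (1.04) rose and APOB (-2.27) and FGB (-0.73) fell, each past the adjusted threshold in limma.

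Of 12 genes that bind or regulate AFP, all tested, 3 rose and 8 fell, where 21.1% of all tested genes rose and 50.9% fell. Their median log2 fold change was -0.56 against -0.36 over all tested genes. CEBPB and CEBPA, liver transcription factors, rose from 15.3 ± 1.79 to 31.2 ± 1.68 TPM and from 85.2 ± 7.44 to 138.0 ± 5.78 TPM (SD, n = 3 each). NR5A2 and HNF4A, nuclear receptors of hepatocytes, fell from 18.6 ± 1.73 to 6.09 ± 0.362 TPM and from 98.1 ± 2.11 to 40.6 ± 2.25 TPM. These 4 kept their sign under each of 5 other scalings, whereas only 4 genes of the list were still called lower after median-of-ratios scaling. The known AFP repressors, looked up after the values had been seen, were ZHX2 at 8.83 ± 0.359 and 5.13 ± 0.872 TPM, ZFHX3 at 2.10 ± 0.0361 and 0.757 ± 0.0850 TPM, and ZBTB20 at 1.38 to 6.56 and 1.82 to 9.10 TPM. ZHX2 and ZFHX3 fell (adjusted p = 0.00212 and 0.000802, limma), but with the length and level trend removed neither passed (log2 fold change 0.09, adjusted p = 0.567 for ZHX2 and -0.21, adjusted p = 0.21 for ZFHX3, limma), and ZBTB20 did not pass as deposited.

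Of 8 RNA-binding and stem cell regulators that are expressed with IGF2BP1 in fetal tissues, 7 were tested and all 7 fell, with a median log2 fold change of -0.78, where 50.9% of all tested genes fell with a median of -0.36. SALL4 passed in only 2 of the 6 fits that left out a library, and LIN28A was below 1 TPM. IGF2BP3 went from 26.9, 25.3 and 23.3 TPM to 2.41, 3.54 and 0.91 TPM, a log2 fold change of -3.08 (adjusted p = 7.73e-05, limma). LIN28B, which blocks the let-7 microRNAs, went from 99.1, 86.9 and 84.0 TPM to 18.7, 19.5 and 18.9 TPM, a log2 fold change of -2.18 (adjusted p = 2.55e-06, limma). With the length and level trend removed 4 of the 7 were called lower and 1 higher, and the median of the list was -0.34.

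On the receiving side of IGF2, a list of 6 genes held IGF1, at most 0.28 TPM and not tested, and 5 receptor and adaptor genes. All 5 receptor and adaptor genes were lower as deposited, where 50.9% of all tested genes fell. Their median log2 fold change was -0.98 against -0.36 over all tested genes. IGF1R, the signalling receptor, fell from 6.98 ± 0.836 to 1.66 ± 0.208 TPM and IRS1, an adaptor, from 13.7 ± 0.881 to 5.91 ± 0.907 TPM (SD, n = 3 each). The longest transcript of each has at least 8138 nt, and with the length and level trend removed 1 was lower, 2 were higher and the median was -0.05. For midkine, 7 of 9 tested family and receptor genes fell and 2 rose, where 50.9% of all tested genes fell and 21.1% rose. After median-of-ratios or upper-quartile scaling, and with the length and level trend removed, 6 of the 9 were lower and 3 higher. ITGA6 and NOTCH2 fell from 55.6 ± 4.94 to 7.93 ± 0.294 TPM and from 14.4 ± 0.224 to 2.01 ± 0.221 TPM, while PTN, the sister growth factor, and SDC1 rose from 0.557 ± 0.218 to 2.72 ± 0.599 TPM and from 26.6 ± 1.88 to 37.5 ± 3.26 TPM (SD, n = 3 each). The proposed receptors ALK and PTPRZ1 were at or near 0 in every library.

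Progenitor and biliary markers, the company in which EPCAM is usually found, did not move as one: of 6 tested of 9, 2 rose, 3 fell and 1 did not pass. Over all tested genes 21.1% rose and 50.9% fell. KRT19, a keratin of bile duct and progenitor cells, had 30.6, 28.1 and 34.3 TPM in control and 171.1, 145.4 and 182.1 TPM in shFAM111B libraries (log2 fold change 2.38, adjusted p = 3.91e-06, limma). PROM1 rose from 13.7 ± 0.576 to 49.7 ± 2.91 TPM, while SOX9 fell from 58.5 ± 0.568 to 22.1 ± 0.519 TPM and CD44 from 25.9 ± 2.31 to 13.3 ± 2.51 TPM (SD, n = 3 each). With the length and level trend removed SOX9 was still lower (log2 fold change -0.80, adjusted p = 3.3e-05, limma). CD44 was then at -0.07 and did not pass (adjusted p = 0.707, limma). Of 10 imprinted neighbours and network genes of H19, IGF2, DLK1 and PEG10, 5 were tested. Of these 5, 3 fell and 1 rose, against 50.9% and 21.1% of all tested genes. With the length and level trend removed 2 were lower and 2 higher, and the list median was -0.21, against -0.88 as deposited. PLAGL1 fell from 13.5 ± 0.724 to 4.09 ± 0.718 TPM and MEST from 15.8 ± 4.05 to 5.04 ± 0.441 TPM, and CDKN1C rose from 1.15 ± 0.138 to 3.58 ± 0.413 TPM. MEG3 and RTL1, the neighbours of DLK1, were at or near 0 in every library.

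The genes closest in pattern to each marker were found among 7430 candidates with a mean of at least 10 TPM, by the root mean square distance of log2(TPM + 1) from the control mean over the 6 libraries. For AFP these were CNPY2 (0.0294), LCN2 (0.0467) and H1-2 (0.0481), and for SPINK1 they were BLOC1S1 (0.0239), S100A10 (0.0344) and SNRPD1 (0.0461). IGF2 was nearest to ERBIN (0.0469), ITGA6 (0.0473) and SLC30A1 (0.0543), and IGF2BP1 to RAB7A (0.025), PABPC1 (0.0276) and EIF4H (0.0287). GPC3 was nearest to UBE2T, UCP2 and LRPAP1, MDK to STOML2, ATP6V1E1 and FABP5, EPCAM to PGAP6, MFF and ECH1, and PEG10 to SLC25A4, PRDX1 and PEF1, all at 0.0196 to 0.0571. Within a distance of 0.1 lay 14 genes for IGF2, 17 for AFP, 34 for SPINK1 and 42 for EPCAM. There were 253 for GPC3, 318 for MDK, 320 for IGF2BP1 and 373 for PEG10, so the named genes are 3 of many with a similar change.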

How the data were processed

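Messenger RNA of Huh7 control and shFAM111B cells was sequenced in 3 libraries per group. The labels give a stranded mRNA kit with poly(A) selection, the paper a TruSeq kit and a HiSeq instrument. The submitters' processing notes name RSEM, DESeq2 and the hg38 build, without versions, and further settings are not given in the sources used here. The authors deposited TPM per library with group means, plus columns of their own comparison, which the file header names as a ratio (fold change), a log2 ratio and 2 kinds of p-value and which were not used. TPM keep no counts, so depth is unknown and neither a count test nor a counting interval was possible.

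The 14394 genes that reached 1 TPM in 3 or more libraries were compared on log2(TPM + 1) with limma 3.58.1 (R 4.3.3, lmFit and eBayes with a trend, no covariates) and Benjamini-Hochberg adjustment. The pseudocount of 1 understates changes of low genes. The fit was also run on simulated data in which few genes changed, equally in both directions and without regard to length. That run does not cover the wide shift and length trend of these libraries. Groups follow the labels. Positions and longest transcripts come from GENCODE v29 (GRCh38), and promoters from RefSeq. The TPM to TPM ratios were compared with exact permutation tests. The members and lists were chosen with earlier results of these data known. Named genes were the 10 markers, FAM111B, ALB, genes overlapping a marker, the 2 higher and 2 lower genes of each list with the largest change and a mean of at least 1 TPM in one group, and the 3 genes nearest in pattern to each marker. Other list genes named for a level or for not passing, the AFP repressors and the pairs named in the closing section fall outside this rule and were chosen after their values were seen.

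Alternatives were no filter, 1 TPM in every library, 0.1 as pseudocount, a block for replicate number, each library left out, 3 other scalings (median of ratios, upper quartile, quantile), a loess fit (span 0.75) on transcript length and level removed for 14251 genes with a length, and limma without a trend. Removing mitochondrial and short RNA genes and summing the genes over IGF2 were added after seeing the data. No pair of libraries was a duplicate (at most 0.889% of tested genes had identical TPM). Within-group correlations over tested genes were 0.969 to 0.984. Tables and figures were made in Python 3.11.15 (pandas 2.3.3, matplotlib 3.10.9, scipy 1.17.1, numpy 2.4.6).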

Additional observations from a re-analysis of the deposited data

How the results depend on the processing

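AFP, SPINK1 and IGF2BP1 kept their direction and stayed past the adjusted threshold in limma in each of 16 alternatives, with log2 fold changes of 1.497 to 2.43, 1.19 to 1.89 and -1.25 to -0.27. FAM111B was lower past the threshold in all 15 alternatives that tested it. IGF2 stayed past it in 18 of 19, the exception being the sum with INS-IGF2 and AC132217.1 (-0.11, adjusted p = 0.328). Of the tested markers 6 were called higher, but 3 were after quantile normalization and 2 when a 2-fold change was required, and 4 to 6 were in the other alternatives. PEG10 turned to -0.31 (adjusted p = 0.000861, limma) under quantile normalization, which makes 3 lower markers, and missed the threshold in 6 further alternatives, including no filter (adjusted p = 0.0501) and limma without a trend (0.105). GPC3 missed it in 1 alternative, EPCAM in 1 and MDK in 2. The count of all tested genes that rose, 3044 as deposited, was 5151 with median-of-ratios, 4938 with upper-quartile and 4675 with quantile scaling, and 7326 lower genes became 4655 with the length and level trend removed. The share of higher calls was 29.4% as deposited, 46.9% to 50.4% under these 4 scalings and 24.4% without mitochondrial and short RNA genes. The cause of these shifts was not tested. Without a pseudocount the log2 ratio of H19 to IGF2 differed by 1.91 in place of 2.40.

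Whether the replicate numbers pair the libraries cannot be told from these values. Same-numbered control and shFAM111B libraries had correlations of deviations of 0.054, 0.0349 and 0.0908 over tested genes, against -0.0763 to 0.0442 for different numbers. None was above 0.1, but 5 of 6 libraries correlated best with their own number. With the replicate number as a block 6 markers were higher and 2 lower, and 3022 and 7198 of all tested genes, so no marker call changed. The TPM hold no counts, and the levels of H19 and DLK1 are too low for a difference to be read.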

Other observations

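AC132217.1 belongs to a class of non-coding genes annotated over the 3′ end of another gene on the same strand. In 10 such pairs both genes were tested, and the non-coding gene was higher in shFAM111B cells in 7 and lower in 3 at an adjusted p under 0.05 (limma), with a median log2 fold change of 0.94. Over all tested genes 21.1% were higher and 50.9% lower, and over the 1478 tested genes up to 1000 nt, which include 4 of these 10, 42.2% were higher and 15.8% lower. The median of the 10 host genes was -1.08, and the non-coding gene lay above its host in 7 pairs, with a median difference of 1.95. With the trend on length and level removed, an alternative added for these pairs after seeing the data, 5 non-coding genes were higher, 2 lower, and 7 lay above their host with a median difference of 0.69. AC132217.1 was then at 0.11 (adjusted p = 0.82, limma). The pair over IGF2 had the largest difference of the 10 as deposited, 4.46, followed by AC024940.5 over SINHCAF at 3.38 and AC007283.1 over CFLAR at 2.87. The opposite order was found for AC093010.2 over ZBTB20 (-1.65). Both genes of a pair share sequence, and how the counting divided reads between them was not tested.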
